A study of Mus musculus with 32 samples.

Results

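The genes described here are the 7 of 33000 genes in the deposited counts whose level was lower in GFAP-IL6 than in wild-type (WT) mouse frontal cortex in every library at both of the larger RNA inputs. They were chosen from measured values. Deposited counts were turned into CPM (the count of a gene divided by the total of its library and multiplied by 1000000), 10348 genes had a mean of at least 5 CPM in the 4 WT libraries made from 50 ng of RNA, and of these a gene was kept where all 4 GFAP-IL6 values lay below all 4 WT values at 50 ng and again at 10 ng. The 7 genes are Ndrg4, Cox7b, Abhd17a, Magee1, Ppp1r1b, Tceal1 and Sgsm1, all protein coding. The libraries made from 1 and 0.5 ng had no part in that choice, so the direction at those inputs was examined in them.

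The study tested 3'Pool-seq, in which the 3' ends of messenger RNAs are counted after samples have been barcoded and pooled. GFAP-IL6 mice carry a transgene in which a GFAP promoter, active mainly in astrocytes, drives the cytokine interleukin-6, and homozygous animals were compared with WT animals, both C57BL/6 and 3 months old. Frontal cortex RNA entered reverse transcription at 50, 10, 1 or 0.5 ng, with 4 libraries per genotype at each amount and 32 in all. Total counts ran from 261378 to 9840302 per library, and nothing in the labels states that libraries with the same number come from 1 animal.

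Brain tissue that is exposed to interleukin-6 is known for activated astrocytes and microglia, and most of what is described in such tissue rises. In bulk tissue, fewer cells of the type that makes an RNA and less of it per cell cannot be told apart, and a level given as a share of the library total is also lower where other RNAs take more of that total. The lower genes here have unrelated textbook roles. Ndrg4 belongs to the N-myc downstream-regulated family and is made mainly in neurons and heart. Cox7b is a nuclear-encoded subunit of cytochrome c oxidase, complex IV of the respiratory chain. Abhd17a is a hydrolase that removes palmitate from membrane proteins such as PSD-95, Magee1 is a MAGE family protein that binds dystrobrevin, Ppp1r1b encodes DARPP-32, the inhibitor of protein phosphatase 1 that is abundant in dopamine-responsive striatal neurons, Tceal1 is a relative of transcription elongation factor A, and Sgsm1 carries RUN and TBC domains and interacts with Rab and Rap small G proteins.

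On GRCm38, in GENCODE vM21, Ndrg4 lies at chr8:95676980-95715119, Cox7b at chrX:106015700-106022450, Abhd17a at chr10:80583654-80590341 and Magee1 at chrX:105120378-105123927. Ppp1r1b lies at chr11:98348404-98357796, Tceal1 at chrX:136707982-136711478 and Sgsm1 at chr5:113243220-113310786. Abhd17a and Sgsm1 are on the minus strand and the other 5 on the plus strand. The X chromosome holds 3 of the 7, against 341 (3.295%) of the 10348 genes from which they were drawn and 0 of the 34 genes that met the mirror rule (all 4 GFAP-IL6 values above all 4 WT values at both inputs). The Y-linked genes Ddx3y and Eif2s3y had at least 15 and 6 counts in each of the 32 libraries. Ppp1r1b shares 460 exon bases with 1700003D09Rik on the opposite strand, and the use of strand in counting is not given in the sources used here, so its reads may be shared with that transcript. Abhd17a holds the intronic transcript Gm29093, with no exon bases in common.

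Promoter windows from RefSeq (GRCm38.p6, from 250 bases before to 50 after a start site) were found for 6 of the 7 genes, 10 windows in all. Those of Abhd17a, Cox7b and Sgsm1 are shown because Sgsm1 had the lowest level relative to WT and because the other windows show how unlike the promoters of this small set are, with 61.3% G and C for Abhd17a and 43.3% for Cox7b. Capitals mark the GC box (GGGCGG), the CCAAT box (CCAAT) and the TATA box (TATAAA), each on either strand, and none of these strings contains another. The windows are Abhd17a at chr10:80590292-80590591 (minus strand), Cox7b at chrX:106015450-106015749 (plus strand), and for Sgsm1 an upstream start at chr5:113310737-113311036 and an internal start at chr5:113280552-113280851 (both minus strand).
Abhd17a: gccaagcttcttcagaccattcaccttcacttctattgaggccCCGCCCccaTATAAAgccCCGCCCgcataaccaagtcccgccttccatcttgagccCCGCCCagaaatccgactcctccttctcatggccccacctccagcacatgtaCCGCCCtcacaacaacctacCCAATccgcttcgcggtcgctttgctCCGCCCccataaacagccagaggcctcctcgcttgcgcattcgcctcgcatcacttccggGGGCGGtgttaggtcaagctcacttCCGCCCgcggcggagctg
Cox7b: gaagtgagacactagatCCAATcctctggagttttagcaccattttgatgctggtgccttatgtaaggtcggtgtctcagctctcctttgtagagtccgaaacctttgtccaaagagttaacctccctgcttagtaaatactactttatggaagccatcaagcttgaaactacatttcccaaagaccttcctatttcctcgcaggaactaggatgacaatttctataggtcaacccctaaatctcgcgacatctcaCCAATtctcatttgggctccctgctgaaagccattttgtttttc
Sgsm1 upstream start: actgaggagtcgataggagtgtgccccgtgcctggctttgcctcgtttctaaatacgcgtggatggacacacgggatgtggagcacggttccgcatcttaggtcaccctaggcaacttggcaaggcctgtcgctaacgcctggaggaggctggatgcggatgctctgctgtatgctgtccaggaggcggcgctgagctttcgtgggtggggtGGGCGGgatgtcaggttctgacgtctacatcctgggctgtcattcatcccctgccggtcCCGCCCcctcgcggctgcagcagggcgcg
Sgsm1 internal start: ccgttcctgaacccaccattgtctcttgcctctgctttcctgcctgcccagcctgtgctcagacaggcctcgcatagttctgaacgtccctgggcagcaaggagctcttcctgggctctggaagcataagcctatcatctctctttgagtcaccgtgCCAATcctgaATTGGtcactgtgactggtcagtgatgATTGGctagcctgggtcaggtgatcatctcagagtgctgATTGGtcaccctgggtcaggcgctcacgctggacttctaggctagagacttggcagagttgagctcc
The Abhd17a window holds 7 GC boxes, 1 CCAAT box and 1 TATA box, that of Cox7b holds 2 CCAAT boxes and no GC box, and the Sgsm1 windows hold 2 GC boxes at the upstream start and 4 CCAAT boxes at the internal start. Of the 10 windows, 5 held a GC box (of Abhd17a, Magee1, Ndrg4 and Sgsm1) and 5 a CCAAT box (of Abhd17a, Cox7b, Ndrg4 and Sgsm1), while 35.7% and 37.4% of all 32851 windows held these letters. The TATA box letters were present in 2 windows (of Abhd17a and Ndrg4) and an E-box (CACGTG) in 2 (of Ndrg4 and Tceal1), against 13.6% and 7.15% of all windows. The letters TATAAA began at −198 from the start site in Abhd17a and at −30 in Ndrg4, and whether either acts as a TATA box was not tested. No window of the 6 genes held the STAT motif TTCNNNGAA (8.30% of all windows), the cyclic AMP response element TGACGTCA (1.79%) or the NRF1 motif (0.971%). No letter pattern was therefore common to all 6.

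The genotype labels were first checked on the transgene and its promoter's own gene. Il6 was counted in all 4 GFAP-IL6 libraries at 50 ng (0.717 to 8.40 CPM, against at most 0.277 CPM in WT) and at 10 ng (1.88 to 10.1 CPM, against at most 0.758 CPM in WT). At 1 ng it was at 0 in 2 GFAP-IL6 libraries and at 10.4 CPM in WT replicate 3, and at 0.5 ng it was at 0 in all 8. Gfap, the intermediate filament of astrocytes, was higher in 4 of 4 GFAP-IL6 libraries than in any WT library at 50 and 10 ng and in 3 of 4 at 1 and 0.5 ng. Ttr, a choroid plexus transcript, reached 3355, 3003, 3079 and 3110.4 CPM in WT replicate 3 at 50, 10, 1 and 0.5 ng and at most 335 CPM elsewhere. WT replicate 3 thus shared a feature across inputs. Within each genotype, deviations from the group mean matched the same number best in 3 or 4 of 4 libraries for every pair of inputs. The correlations of like numbers there ran from 0.00143 to 0.634. Between genotypes, too, the same number matched best in 3, 4 and 4 of 4 libraries at 50, 10 and 1 ng, so such matches do not show shared animals. As the cautious choice, the low-input libraries are read here as repeat measurements, not as further animals. GFAP-IL6 replicate 4 at 50 ng stood apart from the other libraries and was the lowest of its group for Ndrg4, Cox7b, Abhd17a, Ppp1r1b and Tceal1.

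**Figure D1:**
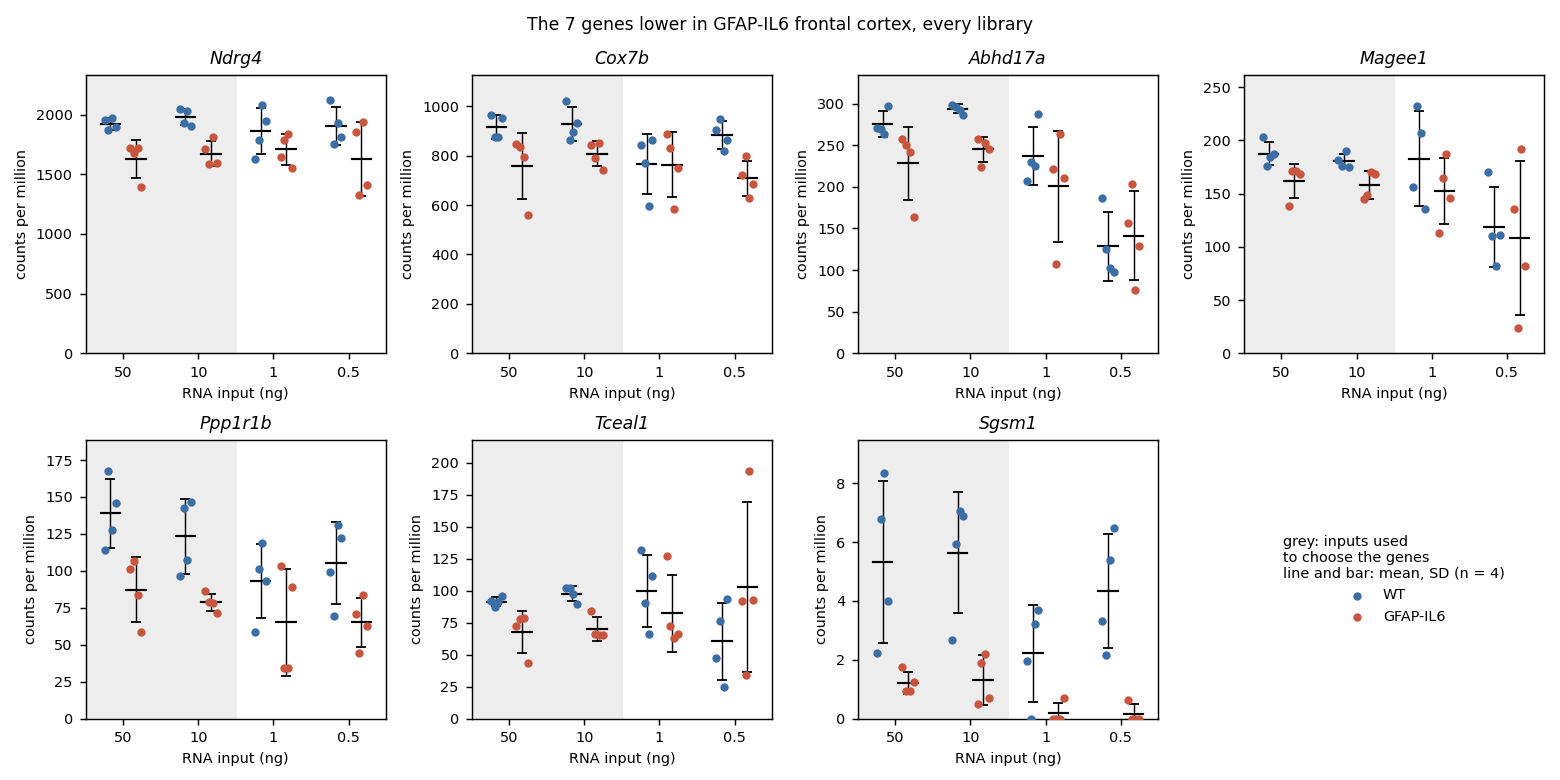
CPM of each of the 7 genes (vertical axes, from 0) in all 32 libraries by RNA input in ng (horizontal axes), WT in blue and GFAP-IL6 in red, with the mean and SD of 4 libraries. In the grey zones, whose values chose the genes, the red points lie below the blue ones in every panel, and at 1 ng the groups overlap in all 7.

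At 50 ng, 126 of the 10348 genes (1.22%) had all 4 GFAP-IL6 values below all 4 WT values, and at 10 ng 144 (1.39%) did. The 7 genes are those found at both inputs, since 119 of the 126 overlapped at 10 ng and 137 of the 144 overlapped at 50 ng. The values at these inputs are therefore a description of the choice.

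Ndrg4 was the most abundant of the 7. Its level at 50 ng was 1955, 1870.0, 1974 and 1893 CPM in the WT libraries and 1719.6, 1680.2, 1718 and 1389.7 CPM in the GFAP-IL6 libraries, replicates 1 to 4 in order here and throughout. The GFAP-IL6 mean was 84.6% of the WT mean (1627 ± 159 against 1923 ± 49.6 CPM, SD, n = 4). At 10 ng WT libraries stood at 2044, 1932, 2030.2 and 1906 CPM and GFAP-IL6 libraries at 1707, 1586, 1809 and 1593 CPM, again 84.6% of WT. The relative level was thus alike at both inputs, and the gap between the highest GFAP-IL6 and the lowest WT library was 8.04% of the latter at 50 ng and 5.09% at 10 ng.

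Cox7b had 965, 874, 877 and 954 CPM in WT at 50 ng and 848, 833, 792 and 558 CPM in GFAP-IL6. At 10 ng it had 1022, 862, 894 and 932 CPM in WT and 844, 791, 849.8 and 742 CPM in GFAP-IL6. The means were 82.6% and 87.0% of WT, and the groups were barely apart, by 2.97% and 1.40% of the lowest WT value. Abhd17a, the depalmitoylating enzyme, had 271, 269, 264 and 298 CPM in WT and 258, 250.02, 242 and 164 CPM in GFAP-IL6 at 50 ng. At 10 ng its groups lay further apart, with 299, 297, 293 and 287 CPM in WT and 257, 224, 253 and 246 CPM in GFAP-IL6, or 83.4% of WT. With TMM effective library sizes, or with mitochondrially encoded genes left out of the total, neither Cox7b nor Abhd17a met the rule.

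Magee1 had 203, 176, 184 and 187 CPM in WT and 138, 171, 171 and 168 CPM in GFAP-IL6 at 50 ng. It had 182, 176, 190.0 and 175 CPM in WT and 145, 148, 171 and 169 CPM in GFAP-IL6 at 10 ng. Its relative level, 86.4% and 87.5% of WT, was the nearest to WT of the 7 at both inputs. Tceal1 had 91.9, 87.3, 90.7 and 95.8 CPM in WT and 72.1, 77.4, 78.4 and 43.2 CPM in GFAP-IL6 at 50 ng. At 10 ng 3 GFAP-IL6 libraries were close together (65.8, 65.6 and 65.2 CPM) and replicate 1 was higher at 84.2 CPM, below WT values of 102, 102, 97.0 and 89.5 CPM. The means were 74.2% and 72.0% of WT.

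Ppp1r1b, the DARPP-32 gene, was lower by a wider margin. At 50 ng WT libraries had 114, 168, 127 and 146 CPM and GFAP-IL6 libraries 101, 106, 83.7 and 58.2 CPM. At 10 ng the values were 96.2, 143, 108 and 147 CPM in WT and 86.1, 78.9, 78.1 and 71.6 CPM in GFAP-IL6. WT varied more than GFAP-IL6 at 10 ng (SD 25.1 against 5.93 CPM), with WT replicate 1 lowest at both inputs, and the GFAP-IL6 means were 62.9% and 63.8% of WT.

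Sgsm1 had the lowest relative level and by far the lowest counts. It had 2.21, 6.77, 8.35 and 3.98 CPM in WT and 1.74, 0.933, 0.922 and 1.25 CPM in GFAP-IL6 at 50 ng. At 10 ng it had 2.67, 5.94, 7.07 and 6.89 CPM in WT and 0.492, 1.88, 2.18 and 0.711 CPM in GFAP-IL6, so GFAP-IL6 stood at 22.7% and 23.3% of WT. The pooled counts behind these levels were 77 in WT and 18 in GFAP-IL6 at 50 ng, and 108 and 22 at 10 ng. Per count sequenced, WT was 3.84-fold and 5.24-fold higher, ratios that the choice of the gene placed above 1. Sgsm1 met the minimum only through WT, its higher group. Sgsm1 was also the member just inside the minimum, with a WT mean of 5.33 CPM, and the next was Tceal1 at 91.4 CPM. Just outside was 1 gene, Spc24, a kinetochore subunit, with a WT mean of 4.64 CPM and a GFAP-IL6 mean of 3.03 CPM at 50 ng.

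Beside the fit over all genes (edgeR quasi-likelihood, Benjamini-Hochberg adjustment), the log2 fold changes at 50 and 10 ng were −0.72 and −0.68 for Ppp1r1b, −0.49 and −0.50 for Tceal1, −0.32 and −0.23 for Cox7b, −0.31 and −0.29 for Abhd17a, −0.28 and −0.27 for Ndrg4, and −0.25 and −0.22 for Magee1. Sgsm1 passed the filter on low counts only at 10 ng, at −2.26 (SE 0.65). None of the 7 had an adjusted p under 0.05 in edgeR with the filter, all libraries and no block, while without the filter Ppp1r1b (0.0410 at 50 ng and 0.0138 at 10 ng) and Sgsm1 (0.0470 at 50 ng) did, as did Ppp1r1b with a replicate block at 10 ng (0.00930). With the filter this was so of 0 of the 6 tested at 50 ng, where 0.0% of 11773 genes were called lower, and of 0 of 7 at 10 ng, where 0.0332% of 12043 were. The 4 genes called lower at 10 ng were Krt12, 1500015O10Rik, Neu3 and Cirbp, named after their values were seen and none of them among the 7. By DESeq2, 0 of the 7 were called at 50 ng (0.0% of 18945 genes called lower) and 1 at 10 ng (Ppp1r1b, with 0.0435% of 18378 called lower). At an unadjusted p under 0.05, 2 of 6 were lower at 50 ng (1.5% of all genes) and 5 of 7 at 10 ng (2.76%). All these p-values and calls of the 7 at 50 and 10 ng, adjusted or not, restate the choice of the genes. They give no further support for a lower level. In the opposite direction 170 genes (1.64%) did not overlap at 50 ng and 260 (2.51%) at 10 ng, 34 of them at both, and edgeR called 33 genes higher at 50 ng (0.28%) and 36 at 10 ng (0.299%).

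**Figure D2:**
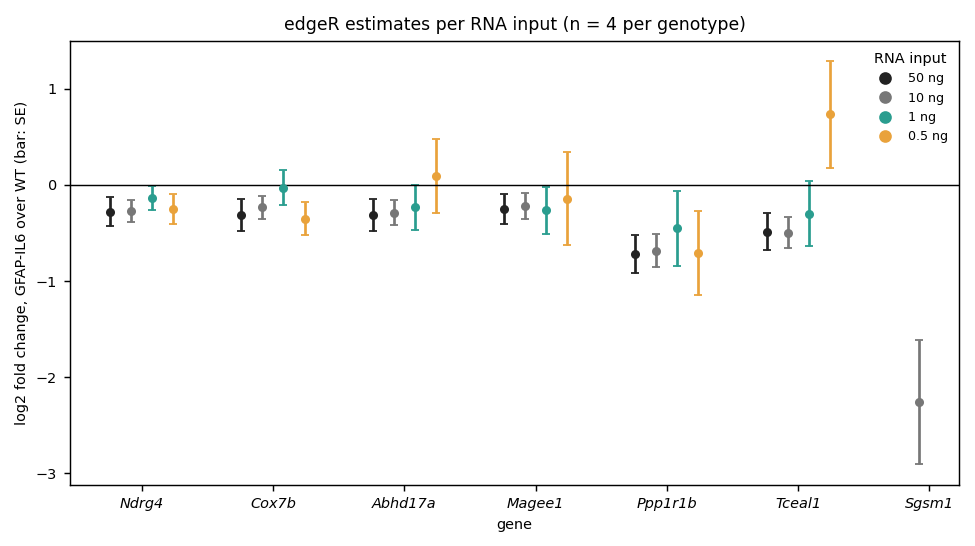
edgeR log2 fold change of GFAP-IL6 over WT (vertical axis) with its SE for each gene (horizontal axis) at the 4 RNA inputs, marked by colour, n = 4 per genotype. Estimates at 50 and 10 ng, which chose the genes, lie below 0 for every gene tested (Sgsm1 at 10 ng only), and Tceal1 stands at 0.73 at 0.5 ng.

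The question put to the 1 and 0.5 ng libraries was whether the direction held where it had not been selected. At 1 ng the GFAP-IL6 mean was below the WT mean for 7 of 7 genes, against 49.7% of all 10348 genes, and at 0.5 ng for 5 of 7, against 48.7%. If same-numbered libraries come from 1 animal, a difference between the animals that chose the genes would carry over to the low inputs, so the share over all genes is not the value that no genotype effect would give. With the 1 and 0.5 ng counts of each number summed it was lower for 6 of 7, against 49.2%. Separation of the groups was rare. All 4 GFAP-IL6 values lay below all 4 WT values for 0 of 7 genes at 1 ng (1.34% of all genes), for 2 of 7 at 0.5 ng (Cox7b and Sgsm1, against 1.25%) and for 1 of 7 in the sums (Sgsm1, against 1.25%). The filter on low counts removed Sgsm1 from the edgeR fits at 1 ng, at 0.5 ng and in the sums, so 6 of the 7 were tested. None of the 6 was called at 1 ng (0.0% of 9276 genes called lower), 0.5 ng (0.0% of 8571) or in the sums (0.0% of 10705). None of the 6 had an unadjusted p under 0.05 either, as 1.7%, 1.38% and 1.7% of all genes did with a lower level. DESeq2 called 0 of the 7 as well, and 0.0065%, 0.0432% and 0.00626% of all genes lower. The 6 genes tested had median log2 fold changes of −0.25, −0.20 and −0.19, against −0.01, −0.01 and 0.00 over all genes tested.

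**Figure D3:**
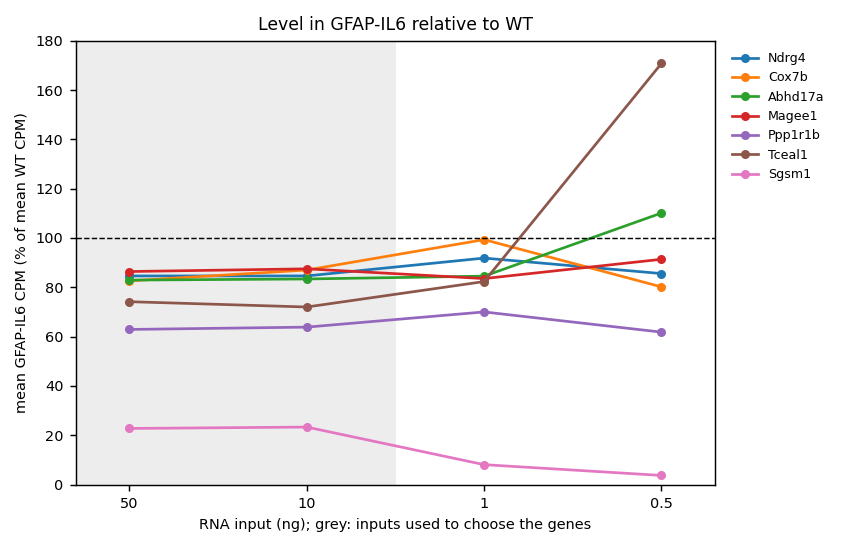
Mean GFAP-IL6 level as a percent of the mean WT level (vertical axis) by RNA input in ng (horizontal axis), 1 line per gene, with the inputs that chose the genes in grey and the dashed line at 100%. Ppp1r1b stays between 61.8% and 70.01% at all 4 inputs, Sgsm1 is the lowest throughout, and Tceal1 and Abhd17a cross 100% at 0.5 ng.

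Sgsm1 kept the widest difference at the low inputs, on very few reads. At 1 ng it had 1.96, 0, 3.21 and 3.68 CPM in WT and 0, 0, 0 and 0.714 CPM in GFAP-IL6, from 16 and 2 counts. At 0.5 ng it had 3.33, 2.17, 5.40 and 6.46 CPM in WT and 0.641, 0, 0 and 0 CPM in GFAP-IL6, from 29 and 1 counts. A WT library at 0 made the groups overlap at 1 ng, and they did not overlap at 0.5 ng. The rate was 8.94-fold higher in WT at 1 ng (exact 95% interval 2.10 to 80.2) and 33.7-fold higher at 0.5 ng (5.58 to 1376), and in the sums, from 45 and 3 counts, 17.1-fold higher (5.49 to 86.0). These intervals cover counting error only, since reads without molecular identifiers are not separate molecules. The exact permutation test over samples (two-sided, 4 against 4) gave p = 0.143 at 1 ng and p = 0.0286 at 0.5 ng and in the sums, the smallest p that this design allows. The sums hold the 0.5 ng counts, so their p is not a separate result. If same-numbered libraries come from 1 animal, differences between the animals that chose a gene carry over to its low-input p-values and intervals. This limit applies to the other genes below as well. Sgsm1 had also met the minimum only through WT, its higher group. The level is close to the limit of these libraries, where a count of 0 (3 counts of the total) allows up to between 1.07 and 11.5 CPM in a GFAP-IL6 library of 1 ng and up to between 1.10 and 10.2 CPM in one of 0.5 ng, so that absence was not shown.

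**Figure D4:**
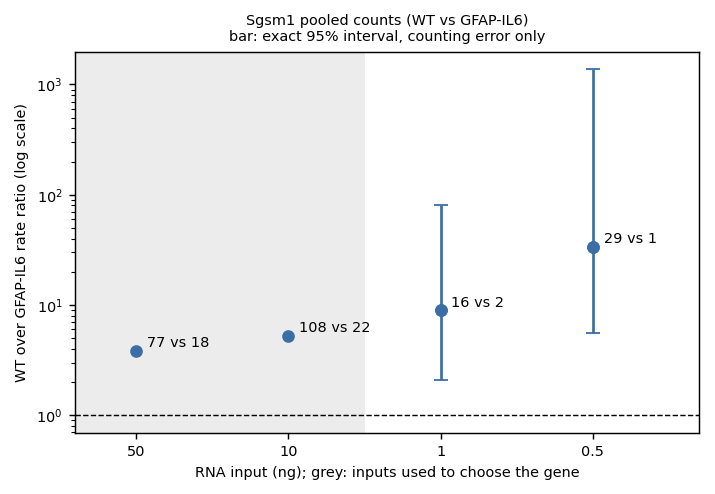
Ratio of the Sgsm1 read rate in WT to that in GFAP-IL6 (vertical axis, log scale) at each RNA input in ng (horizontal axis), from the pooled counts of 4 libraries per genotype, written beside each point as WT against GFAP-IL6, with exact 95% intervals for counting error at the inputs that had no part in the choice. In the grey zone the choice of the gene put the ratio above the dashed line at 1, and the intervals at 1 and 0.5 ng are wide because they rest on 2 and 1 GFAP-IL6 counts.

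Ppp1r1b was at 58.9, 101, 119 and 93.2 CPM in WT and 103, 34.4, 34.001 and 88.9 CPM in GFAP-IL6 at 1 ng. At 0.5 ng it was at 99.0, 69.4, 131 and 122 CPM in WT and 70.5, 44.1, 83.6 and 62.4 CPM in GFAP-IL6 at 0.5 ng. Its mean was 70.01% and 61.8% of WT, close to the 62.9% and 63.8% of the larger inputs, but the groups overlapped at both. The exact permutation p was 0.229 at 1 ng, 0.0857 at 0.5 ng and 0.114 in the sums, and 7 of its 8 low-input GFAP-IL6 libraries were below the WT mean of their input. Its log2 fold change in the sums was −0.58 (SE 0.29, adjusted p = 0.999 in edgeR).

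Cox7b differed between the low inputs. At 0.5 ng the groups were apart, with 906, 947, 817 and 864 CPM in WT and 723, 797, 628 and 686 CPM in GFAP-IL6, which is 80.2% of WT (exact permutation p = 0.0286), although with TMM effective library sizes the groups overlapped slightly there too. At 1 ng they were not, with 843, 769.6, 596 and 862 CPM in WT and 887, 830.2, 585 and 749 CPM in GFAP-IL6, which is 99.3% of WT (exact permutation p = 0.914). The edgeR log2 fold changes were −0.35 (SE 0.17) and −0.03 (SE 0.18), with adjusted p of 0.9999 and 0.997 in edgeR.

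Ndrg4, with 10412 to 10820 counts per genotype at each low input, was at 91.8% of WT at 1 ng and 85.6% at 0.5 ng. At 0.5 ng its WT libraries had 2122, 1756, 1931 and 1813 CPM, and its GFAP-IL6 libraries 1852, 1325, 1937 and 1407 CPM, so that replicates 2 and 4 were below every WT library and replicates 1 and 3 were within the WT range. At 1 ng 1 of 4 GFAP-IL6 libraries was below every WT library. The exact permutation p was 0.286, 0.257 and 0.143 at 1 ng, at 0.5 ng and in the sums.

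Magee1, Abhd17a and Tceal1 spread widely at the low inputs. Magee1 was at 83.5% of WT at 1 ng and 91.4% at 0.5 ng, where GFAP-IL6 libraries ran from 23.7 to 192 CPM and WT libraries from 81.8 to 170.5 CPM. Abhd17a was at 84.5% of WT at 1 ng and at 110.1% at 0.5 ng, with a mean of 141 ± 53.4 CPM in GFAP-IL6 and 128 ± 41.1 CPM in WT (SD, n = 4). Tceal1 was at 82.3% of WT at 1 ng and at 171% at 0.5 ng, where GFAP-IL6 libraries had 91.6, 33.9, 193 and 92.9 CPM and WT libraries 47.4, 75.9, 24.7 and 93.1 CPM. The exact permutation p of these 3 genes was between 0.343 and 0.771 at 1 and 0.5 ng, and the difference in either direction was within the spread between libraries. WT means of Abhd17a were 275, 294, 237 and 128 CPM and those of Magee1 188, 181, 183 and 119 CPM from 50 to 0.5 ng.

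For the mirror set the direction could be read the same way. Its 34 genes had a GFAP-IL6 mean below WT in 2 cases at 1 ng and 4 at 0.5 ng, and all 4 GFAP-IL6 values above all 4 WT values in 11 and 10 cases (1.65% and 1.37% of all genes). The median difference in log2(CPM + 1) was 1.09 at 50 ng and 1.10 at 10 ng in that set, and −0.28 and −0.26 among the 7. These values chose both sets. At 1 and 0.5 ng, which had no part in the choice, it was 0.99 and 1.19991 in the mirror set. Among the 7 it was −0.26 and −0.22 there. The minimum of 5 CPM in WT screened the lower group of the mirror genes but the higher group of the 7. The medians therefore do not show which direction had the larger differences. No test of the 2 sets against each other was made.

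Of 44 gene lists for cell types and functions, 42 held none of the 7, and 5 of the 7 were in no list. As 7 of 10348 genes is 0.0676%, most lists of this size would hold none, so their absence from the lists of neuronal and glial markers does not place them in a cell class. Summed pan-neuronal markers at 50 ng were 10899 to 11758 CPM in WT and 11216 to 14996 CPM in GFAP-IL6, and summed excitatory markers 2451 to 2921 and 2413 to 3481 CPM, so the ranges overlapped. Summed microglial markers did not overlap at any input. They were 815 to 914 CPM in WT and 968 to 2082 CPM in GFAP-IL6 at 50 ng, and 693 to 941 and 1514 to 2217 CPM at 0.5 ng. The part of this in the lower levels was not tested.

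Cox7b belongs to the list of nuclear-encoded oxidative phosphorylation genes, of which 94 were among the genes of the deposited counts and 88 met the minimum. Apart from Cox7b, 85 of 88 genes tested at 50 ng had a negative log2 fold change (median −0.21) and 84 of 89 did at 10 ng (median −0.17), beside 50.4% and 49.6% of all genes. At 1 and 0.5 ng it was 66 of 84 (median −0.12) and 64 of 84 (median −0.15), beside 50.4% and 50.8%. Some lists without a member were also mostly negative at 50 and 10 ng. Cytosolic ribosomal protein genes were negative in 80 of 81 cases at 50 ng (median −0.14) and 72 of 81 at 10 ng (median −0.08). Proteasome subunits were negative in 34 of 37 (median −0.20) and 33 of 37 (median −0.18). At 1 and 0.5 ng the ribosomal genes were negative in 43 of 80 and 50 of 80 cases. Proteasome subunits were negative in 26 of 37 and 20 of 36 there. edgeR called none of the oxidative phosphorylation genes at any input. At an unadjusted p under 0.05 the list with Cox7b had 0 of 89, 5 of 90, 3 of 85 and 2 of 85 genes lower at 50, 10, 1 and 0.5 ng. Among all genes 1.5%, 2.76%, 1.7% and 1.38% were lower at that p. Without GFAP-IL6 replicate 4 the median of the list without Cox7b at 50 ng was −0.05, with 69 of 88 negative. At 10, 1 and 0.5 ng it was then −0.11, −0.08 and −0.14, with 82 of 90, 58 of 84 and 57 of 84 negative. The summed level of the list without Cox7b was 45035 to 49933 CPM in WT and 30396 to 47576 CPM in GFAP-IL6 at 50 ng, where replicate 4 was the lowest, and 50174 to 54046 and 46544 to 50284 CPM at 0.5 ng, where the ranges overlapped slightly.

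Of 12 other genes named for complex IV subunits with at least 5 CPM in WT, the mean was lower for 12, 11, 10 and 10 at 50, 10, 1 and 0.5 ng. Among all genes the shares were 48.2%, 47.7%, 49.7% and 48.7%. The groups were apart, with GFAP-IL6 lower, for 0, 0, 3 (Cox6a1, Cox6c and Cox7c) and 2 (Cox6a1 and Cox7c). This was so of 1.22%, 1.39%, 1.34% and 1.25% of all genes. Cox7a1 was at 119% of WT at 10 ng. Cox6a2, the muscle-type isoform of its subunit, was at 140.6% and 140.9% of WT at 1 and 0.5 ng, Cox7a2l at 104.6% at 1 ng and Cox6c at 103% at 0.5 ng. Cox7c had 922, 898, 1056 and 1126 CPM in WT and 739, 494, 817 and 842 CPM in GFAP-IL6 at 1 ng. At 0.5 ng it had 1182, 941, 878 and 1035 CPM in WT and 871, 712, 832 and 793 CPM in GFAP-IL6. Its groups were thus apart at 1 and 0.5 ng and overlapped at 50 and 10 ng. Cox6a1 had 2295, 2055, 2275 and 2496 CPM in WT and 2042, 1618, 1854 and 1979 CPM in GFAP-IL6 at 1 ng. At 0.5 ng, with 2611, 2718, 2641 and 2536 CPM in WT and 2279, 2393, 2176 and 1989.8 CPM in GFAP-IL6, it was again lower in every GFAP-IL6 library. These genes were named after their values had been seen, and Cox7c and Cox6a1 had no adjusted p under 0.05 in edgeR at any input.

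**Figure D5:**
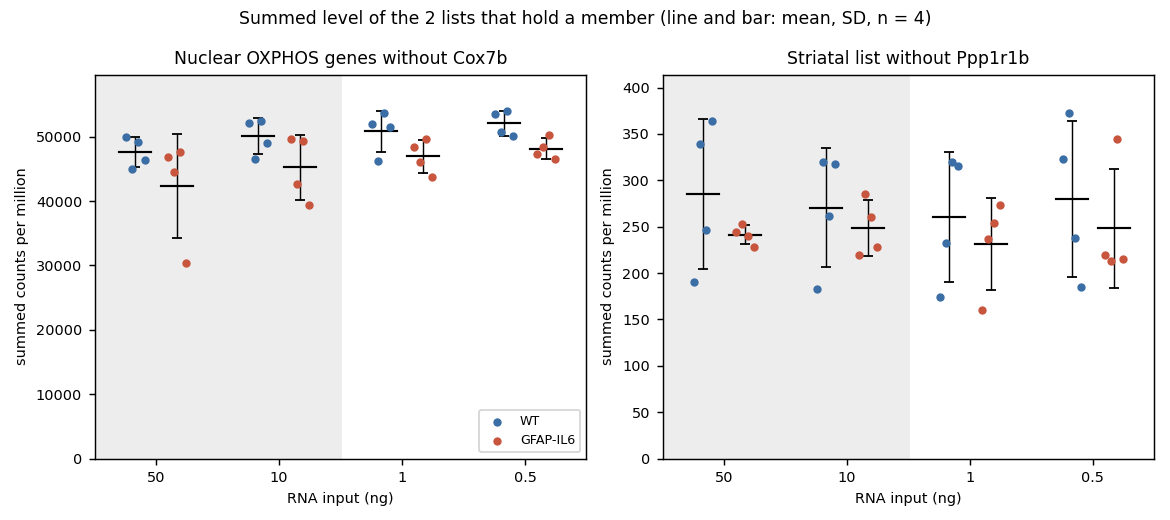
Summed CPM (vertical axes, from 0) of the nuclear oxidative phosphorylation genes without Cox7b (left) and of the striatal projection neuron genes without Ppp1r1b (right) in each library by RNA input in ng, WT in blue and GFAP-IL6 in red, with mean and SD of 4 libraries. On the left GFAP-IL6 replicate 4 at 50 ng is the lowest point, at 30396 CPM, and on the right the groups overlap at every input.

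Ppp1r1b belongs to the list of striatal projection neuron genes, of which 14 were among the genes of the deposited counts and 10 met the minimum. Drd2, a defining marker of those cells, was at 0 in all 32 libraries, and Adora2a was at or below 0.939 CPM at 50, 10 and 1 ng and, at 0.5 ng, reached 6.502 CPM in WT and was at 0 in GFAP-IL6. Penk and Drd1 were counted. The other genes of the list had a negative log2 fold change in 9 of 10 cases at 50 ng (median −0.52) and 7 of 9 at 10 ng (median −0.25). It was negative in 4 of 7 at 1 ng (median −0.16) and 4 of 7 at 0.5 ng (median −0.52). Among all genes 50.4%, 49.6%, 50.4% and 50.8% were negative, and none of the list was called by edgeR. At 10 ng the median was −0.08 without WT replicate 4, and 5 of 9 were negative without WT replicate 3. With Ppp1r1b, which the values at 50 and 10 ng chose, 5 of 11 were lower at an unadjusted p under 0.05 in edgeR at 50 ng and 3 of 10 at 10 ng (1.5% and 2.76% of all genes). At 1 and 0.5 ng 0 of 8 and 0 of 8 were (1.7% and 1.38%). Penk, the proenkephalin gene, had log2 fold changes of −0.47, −0.51, −0.38 and −0.52 from 50 to 0.5 ng, and Pde10a, a phosphodiesterase of the same cells, of 0.39, 0.64, 0.35 and 0.60, both named after their values were seen. The list without Ppp1r1b summed to 190, 339, 246 and 364 CPM in WT at 50 ng and to 228 to 253 CPM in GFAP-IL6. WT replicate 1, the lowest WT library for Ppp1r1b at 50 and 10 ng, was also the lowest in this sum at both. At 1 ng it was again the lowest WT library for Ppp1r1b (58.9 CPM) and for the sum (174 CPM). At 0.5 ng Ppp1r1b was lowest in WT replicate 2 (69.4 CPM), where the sum was highest (373 CPM). There the sum was lowest in WT replicate 4 (185 CPM). The share of striatal tissue in the dissected cortex was not tested.

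Relatives of the 7 genes by name were compared last, a set chosen after the 7 were known. Relatives whose symbol had at least 5 CPM in WT gave 17 entries. These include a second Sgsm3 entry at 0 CPM in every library, which does not itself meet the minimum and could never be lower. None of the 17 had all 4 GFAP-IL6 values below all 4 WT values at 50 or 10 ng. Among all genes 1.22% and 1.39% did. The mean was lower for 13, 8, 6 and 11 of the 17 entries at 50, 10, 1 and 0.5 ng. The shares of all genes with a lower mean were 48.2%, 47.7%, 49.7% and 48.7%. The 13 include Tceal8 and the other Sgsm3 entry, which were at 99.9998% and 99.9% of WT. Ndrg2, the astrocytic member of the Ndrg family, was at 95.2% and 88.9% of WT at 50 and 10 ng, Ndrg3 at 91.3% and 91.6%, and Ndrg1 at 109% and 110.04%. Ppp1r1a, the inhibitor-1 gene and nearest relative of Ppp1r1b, was at 82.3% and 86.9% with overlapping groups. Abhd17b was at 92.7% of WT at 50 ng and 138% at 10 ng, where all 4 GFAP-IL6 values were above WT, and Sgsm2 was at 128% and 158%, likewise above WT in all 4 libraries at 10 ng. Tceal3, Tceal5 and Tceal6 were between 93.2% and 97.3% of WT at 50 ng and between 104.6% and 111% at 10 ng, while Tceal8 had a mean of 151 CPM in both genotypes at 50 ng and was at 86.6% of WT at 10 ng. None of these relatives was called by edgeR at 50 or 10 ng.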

How the data were processed

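The authors pooled barcoded reverse transcription reactions, trimmed poly(A) from single-end reads, aligned them to mm10 with STAR (2.4 in the submitters' processing notes) and counted reads per GENCODE vM6 gene with featureCounts, per the study's methods. The deposited values are raw counts per gene and library, not corrected for length. From these, CPM were computed over the column total (33000 genes, 32 libraries, 4 per group). Total counts were 261378 to 9840302, so 1 count was worth 0.102 to 3.83 CPM. Replicate libraries all differed beyond sampling noise (chi-square over degrees of freedom of at least 2.37 in 48 pairs). The labels do not state that replicates are separate animals, so p-values measure the spread between these samples, which may be technical.

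Genotypes were compared within each input with edgeR 4.0.16 (quasi-likelihood, TMM, filterByExpr, Benjamini-Hochberg over all genes tested, threshold 0.05) in R 4.3.3, which was tested on simulated data, and single genes with two-sided exact permutation tests of log2(CPM + 1), unadjusted, for 7 genes at 1 ng, at 0.5 ng and in their sums. SEs are the size of the log2 fold change over the square root of edgeR's F. Alternatives were DESeq2 1.42.0 and its size factors, no filter, a replicate block, libraries left out, other totals and other minima. The members and the lists were chosen with earlier results of these data known. The rule for named genes took Il6, Gfap, up to 8 members by level and by ratio, which covers all 7, and the genes next to the 5 CPM minimum. Coordinates come from GENCODE vM21, in which 32593 gene identifiers were found.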

Additional observations from a re-analysis of the deposited data

Results flagged for a closer look

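Of 80 groups of 4 libraries, 10 held a library whose distance from the nearest of the others was an unusually large part of the range (Dixon's criterion). Its rate of about 1 in 20 holds for independent values with a normal distribution. The groups flagged for Sgsm1, Spc24 and Il6 hold 3 zeros each and meet the criterion by construction. The groups also share libraries, so the count of 10 does not show an excess. GFAP-IL6 replicate 4 at 50 ng was the lowest for Ndrg4 (1389.7 CPM) and for Abhd17a (164 CPM), and GFAP-IL6 replicate 1 at 50 ng was the lowest for Magee1 (138 CPM). GFAP-IL6 replicate 1 was the highest for Tceal1 at 10 ng (84.2 CPM) and at 1 ng (127 CPM). Sgsm1 was at 0 in 3 GFAP-IL6 libraries and at 0.714 CPM in replicate 4 at 1 ng, and at 0 in 3 and at 0.641 CPM in replicate 1 at 0.5 ng. Spc24, just below the WT minimum, was at 19.5 CPM in WT replicate 2 and at 0 in the other WT libraries at 0.5 ng. Il6 was at 10.4 CPM in WT replicate 3 at 1 ng and at 0 in the other 3. Gfap was at 9.61 CPM in GFAP-IL6 replicate 1 at 0.5 ng, below its 3 fellow libraries (57.5 to 62.4 CPM). The cause of these values was not tested.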

How the results depend on the processing

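Membership depends on how totals are taken. With TMM effective library sizes 18 genes met the rule, 5 of the 7 among them, and with mitochondrially encoded genes left out of the total 11 did, again with 5 of the 7. Cox7b and Abhd17a were the genes lost in both. With a minimum of 1 CPM Spc24 joined, and with 10 CPM Sgsm1 was lost. Leaving out 1 number of 1 genotype gave 11 to 59 genes, more because fewer values must be apart, with all 7 kept except that Sgsm1 fell below the minimum without WT replicate 2 or 3. The number of the 7 with separate groups was 1 at 0.5 ng and 2 in the sums under TMM sizes or totals without mitochondrially encoded genes, and with a library left out 0 to 1 at 1 ng, 2 to 3 at 0.5 ng and 1 to 2 in the sums. The number with a lower mean was 6 to 7, 4 to 5 and 6 to 7.

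Genes called by edgeR numbered 33, 40, 3, 1 and 6 at 50, 10, 1 and 0.5 ng and in the sums. Without the filter on low counts they numbered 93, 64, 11, 5 and 13, and by DESeq2 13, 21 and 22 at 1 and 0.5 ng and in the sums. With a library left out they numbered 11 to 78 (78 without GFAP-IL6 replicate 4), 27 to 54, 2 to 4, 1 to 2 and 3 to 4. Between genotypes, libraries of like number had positive correlations of their deviations at 50 ng (0.0464 to 0.279), 10 ng (0.0498 to 0.200) and 1 ng (0.0170 to 0.0431). At 0.5 ng these were not all positive (−0.00831 to 0.0295). At no input were all above 0.1, and the fits given above did not take the number as a pairing. The replicate block gave 77 calls at 10 ng and 7 at 1 ng, against 40 and 3 without it. In every group replicate 2 had the lowest total counts and replicate 4 the highest. Replicate 3 had the lowest share of mitochondrially encoded counts in every group. What the numbers share was not tested, and the fits without a block do not allow for it. As a hint from the data that numbers may share something, a sample correlated best with its own number in 4 of 4 cases at 10 and 1 ng, 3 at 50 ng and 1 at 0.5 ng.

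Ppp1r1b at 10 ng had an adjusted p of 0.0706 in edgeR, 0.0138 without the filter, 0.00930 with the replicate block, 0.0421 in DESeq2 and 0.0413 without WT replicate 1, over a range of 0.00930 to 0.426. At 50 ng it had 0.269, and 0.0410 without the filter. Sgsm1 at 50 ng, which the filter removed with all libraries in the fit, had 0.0470 without it, and 0.167 in DESeq2. These p-values of Ppp1r1b and Sgsm1 come from the inputs that chose both genes, so they restate that choice. With a library left out, the log2 fold change of Cox7b at 1 ng ran from −0.16 to 0.11 and turned without WT replicate 1 (0.02), WT replicate 4 (0.05) or GFAP-IL6 replicate 3. That of Abhd17a at 0.5 ng ran from −0.095 to 0.35 and turned without WT replicate 3 (−0.03), WT replicate 4 (−0.0036) or GFAP-IL6 replicate 2. That of Magee1 at 0.5 ng ran from −0.52 to 0.17 and turned without WT replicate 1 (0.09) or GFAP-IL6 replicate 2. That of Tceal1 in the sums ran from −0.061 to 0.33 and turned without WT replicate 3 or GFAP-IL6 replicate 3 (−0.01). The causes were not tested.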
